A study of Homo sapiens with 6 samples.

Results

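The 8 genes described here encode enzymes of the polyol pathway and of the glucuronate-xylulose pathway. They are DCXR, AKR1A1, AKR1B1, SORD, XYLB, UGDH, CRYL1 and KHK. They were chosen by name as members of these pathways, but with earlier results of these data known. The study itself lists DCXR among the genes that were downregulated in MUL1(−/−) cells. All 8 were found among the 57123 genes of the count tables. All 8 also passed the filter on low counts, which kept 25125 genes. The RNA came from HEK293 cells, an established human line of embryonic kidney origin, in 2 groups of 3 libraries each. One group was wild type and the other was labelled MUL1(−/−), a line in which CRISPR-Cas9 was used to inactivate MUL1, a ubiquitin and SUMO E3 ligase of the outer mitochondrial membrane. The labels give no drug treatment or time course, and both groups grew in the same medium. The clone that was sequenced, and whether the 3 libraries of a group came from separate cultures, are not given in the sources used here. The p-values below therefore measure the spread between these libraries, which may be technical.

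Both pathways move carbon between sugars and sugar alcohols by pairs of reduction and oxidation steps. In the polyol pathway aldose reductase (AKR1B1) reduces glucose to sorbitol, sorbitol dehydrogenase (SORD) oxidises sorbitol to fructose, and ketohexokinase (KHK) phosphorylates fructose. In the glucuronate-xylulose pathway UGDH makes UDP-glucuronate, AKR1A1 reduces free glucuronate to L-gulonate, CRYL1 oxidises L-gulonate, DCXR reduces L-xylulose to xylitol, SORD can oxidise xylitol to D-xylulose, and xylulokinase (XYLB) passes D-xylulose on to the pentose phosphate pathway. The kidney is known for both pathways, since sorbitol is one of its osmolytes and the proximal tubule handles gulonate and fructose.

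Gene counts summed to between 127015142 and 142803296 per wild-type library and to between 121917971 and 122441959 per MUL1(−/−) library. These are sums over exon pieces, so a read that touched several pieces was counted in each. MUL1 itself had 15.4, 15.2 and 19.0 CPM (counts scaled by the TMM-adjusted size of each library) in the wild-type libraries and 18.7, 16.7 and 19.2 CPM in the libraries labelled MUL1(−/−). The groups overlapped, and its log2 fold change of 0.14 (edgeR adjusted p = 0.321, SE 0.10) does not check the labels, because an edit that disrupts a protein need not lower its mRNA. Of 6 markers of HEK293 cells, NEFL, NEFM, SALL2, LHX1 and PAX2 had more than 1 CPM in every library, while PAX8 stayed at or under 0.136 CPM. Of these 6, 2 rose and 2 fell: NEFM and SALL2 rose by 1.06 and 0.24 on the log2 scale, and PAX2 and LHX1 fell by 1.80 and 0.55 (adjusted p = 2.09e-05, 0.0186, 1.53e-06 and 0.00846, edgeR). The kidney tubule and glomerulus markers LRP2, CUBN, AQP1, SLC34A1, UMOD and NPHS1 summed to 36.3 to 39.5 CPM in wild type. In MUL1(−/−) they summed to 37.2 to 43.7 CPM, and in both groups nearly all of it was LRP2. CUBN and AQP1 rose by 0.55 and 0.80 (adjusted p = 0.0106 and 0.00688, edgeR), and UMOD had at most 1 count in any library. The blood, liver and fibroblast markers PTPRC, CD3E, ALB, APOA1, COL1A1 and COL3A1 summed to 24.3 to 31.3 CPM and 27.1 to 35.1 CPM, nearly all of it the 2 collagens, which moved in opposite directions. COL3A1 rose from 5.13 ± 1.15 to 13.3 ± 4.03 CPM (SD, n = 3 each), COL1A1 fell from 21.9 ± 2.53 to 16.8 ± 1.91 CPM, and PTPRC rose from 0.0951 ± 0.0609 to 0.365 ± 0.0644 CPM (adjusted p = 3.68e-05, 0.00832 and 8.50e-04, edgeR). CD3E had at most 1 count in any library, and the part of these markers in the results was not tested.

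Of the 8 genes, DCXR fell and KHK rose under the quasi-likelihood test of edgeR, with an adjusted p below 0.05. Across all tested genes 37.5% passed that threshold, 18.8% as higher and 18.7% as lower, so 2 of 8 is no larger a share than among the genes at large. The study's rule also asks for a log2 fold change beyond 1 in either direction. DCXR alone of the 8 met it, against 3.87% of tested genes that fell that far and 4.23% that rose that far. The median log2 fold change of the 8 genes was -0.05, and that of all tested genes was -0.01.

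**Figure D1:**
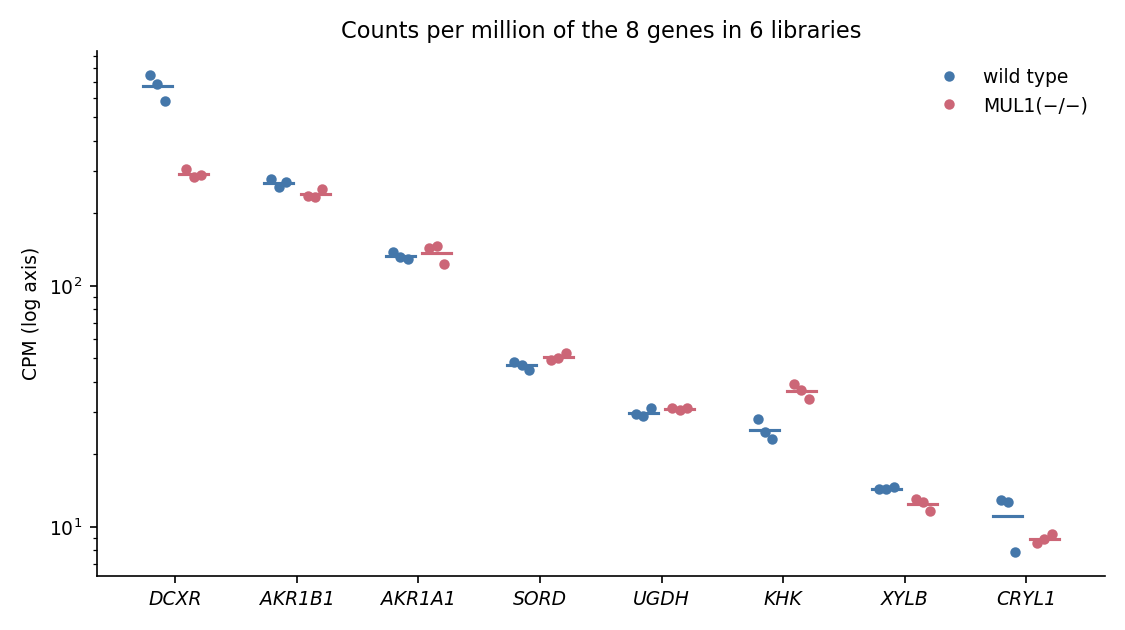
CPM (log axis) of the 8 genes in each of the 6 libraries, ordered by their wild-type mean; points are libraries and bars are group means. The MUL1(−/−) libraries lie between 282 and 305 CPM for DCXR, below the lowest wild-type library at 583 CPM, and between 34.0 and 39.1 CPM for KHK, above the highest wild-type library at 27.9 CPM.

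DCXR is the reductase that turns L-xylulose into xylitol, and it also reduces dicarbonyl compounds. It lies on the minus strand of chr17:82035136-82037732 (GRCh38). It had 752, 685 and 583 CPM in the wild-type libraries and 305, 282 and 288 CPM in the MUL1(−/−) libraries. Each MUL1(−/−) library was below each wild-type library. The mean went from 674 ± 85.3 (SD, n = 3) to 292 ± 11.7 CPM (SD, n = 3), a wild-type level 2.31 times that of MUL1(−/−). The log2 fold change was -1.21 (95% interval -1.39 to -1.03, adjusted p = 6.04e-08, edgeR). The interval excludes 0 and also lies beyond -1, but a test against a fold change of 1 on the log2 scale in place of 0 gave an adjusted p of 0.10 (edgeR glmTreat). In RNA from whole cultures, fewer cells that express a gene and less of its RNA per cell cannot be told apart.

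KHK, which phosphorylates fructose, moved the other way. It lies on the plus strand of chr2:27086747-27100772. It had 27.9, 24.7 and 23.1 CPM in the wild-type libraries and 39.1, 37.0 and 34.0 CPM in the MUL1(−/−) libraries. The groups did not overlap, as was so for 48.5% of all tested genes. The mean went from 25.3 ± 2.46 to 36.7 ± 2.57 CPM (SD, n = 3 each), which is 1.45-fold higher. The log2 fold change of 0.54 (95% interval 0.35 to 0.73, adjusted p = 1.91e-04, edgeR) stayed under the fold threshold of the study. The 3′ end of KHK overlaps the oppositely transcribed gene CGREF1, which had 27.8 to 32.6 CPM in wild type and rose by 0.33 on the log2 scale (adjusted p = 0.00464, edgeR), and 6 of the 22 exon pieces of KHK are shared with it. Without those pieces the log2 fold change of KHK was 0.60 (adjusted p = 1.77e-04, edgeR).

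The first polyol step was less changed. AKR1B1, aldose reductase, on chr7:134442350-134459284 (minus strand), had 277, 257 and 270 CPM in wild type and 235, 234 and 253 CPM in MUL1(−/−). Its groups did not overlap, but its log2 fold change of -0.15 (edgeR adjusted p = 0.0765, SE 0.07) did not pass the threshold. Without MUL1(−/−) library 3 it was -0.19 and passed (adjusted p = 0.0394, edgeR). SORD, which turns sorbitol into fructose, on chr15:45023104-45077185 (plus strand), had 48.5, 47.0 and 44.9 CPM in wild type and 49.4, 50.1 and 52.7 CPM in MUL1(−/−). Its log2 fold change was 0.12 (95% interval -0.03 to 0.27, adjusted p = 0.212, edgeR). SORD2P, a transcribed pseudogene of SORD, had 1.42, 1.26 and 1.34 CPM against 1.83, 1.79 and 1.95 CPM, a log2 fold change of 0.47 (adjusted p = 0.0148, edgeR). It was named after its values were seen, and reads that fit both copies make the counts of this pair uncertain.

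The other glucuronate genes did not pass the threshold. UGDH, which makes UDP-glucuronate, on chr4:39498755-39528311 (minus strand), had 29.4, 28.8 and 31.0 CPM in wild type and 31.3, 30.5 and 31.0 CPM in MUL1(−/−), a log2 fold change of 0.06 (95% interval -0.10 to 0.21, adjusted p = 0.580, edgeR). AKR1A1, which reduces glucuronate, on chr1:45550543-45570049 (plus strand), had 138, 132 and 129 CPM against 143, 146 and 123 CPM, a log2 fold change of 0.05 (95% interval -0.11 to 0.21, adjusted p = 0.665, edgeR). In both genes the groups overlapped, and the intervals leave room for changes of at most 0.21 upward on the log2 scale.

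CRYL1, which oxidises L-gulonate, on chr13:20403666-20525873 (minus strand), had 12.9, 12.6 and 7.87 CPM in wild type and 8.60, 8.86 and 9.34 CPM in MUL1(−/−). Wild-type library 3 lay below all 3 MUL1(−/−) libraries and the other two wild-type libraries lay above them. The log2 fold change was -0.32 (edgeR adjusted p = 0.107, SE 0.15). Without wild-type library 3 it was -0.52 with an adjusted p of 6.85e-04 (edgeR), so that 1 library decides the call for CRYL1. XYLB, xylulokinase, on chr3:38346760-38421348 (plus strand), had 14.3, 14.3 and 14.6 CPM in wild type and 13.0, 12.6 and 11.6 CPM in MUL1(−/−). Its groups did not overlap, and its log2 fold change was -0.22 (edgeR adjusted p = 0.0645, SE 0.09).

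To compare levels between genes, counts were also divided by length over the exon pieces of at least 60 bases that belong to coding transcripts. The scale is rough, since a read that touched several pieces was counted in each, which raises genes cut into short pieces. DCXR had 4 such pieces in 0.334 kb, AKR1B1 8 in 1.123 kb, KHK 14 in 2.45 kb and SORD 13 in 4.937 kb. How far piece size sets the order of the genes was not tested. On this scale of CPM per kb the wild-type order was DCXR at 187 ± 24.5 (SD, n = 3), AKR1B1 at 138 ± 5.54, AKR1A1 at 41.9 ± 1.57, KHK at 8.98 ± 0.858, SORD at 8.22 ± 0.269, UGDH at 5.42 ± 0.274, CRYL1 at 5.08 ± 1.29 and XYLB at 2.51 ± 0.0324. The SD ranges of KHK and SORD overlapped, as did those of UGDH and CRYL1. In MUL1(−/−) libraries DCXR stood at 85.5 ± 3.53 and AKR1B1 at 124 ± 5.46 CPM per kb. The order of these 2 genes in MUL1(−/−) depends on the pieces counted. Only 4 pieces of DCXR, 0.334 kb in all, were long enough for this scale, and one of them, chr17:82035136-82035245, had 4 to 8 counts in each library. With pieces of at least 20 counts alone, DCXR stood at 278 ± 36.5 CPM per kb in wild type and 127 ± 5.21 in MUL1(−/−), where its SD range overlapped that of AKR1B1. CRYL1 then came before UGDH in wild type, at 7.49 ± 1.90 and 6.24 ± 0.290 CPM per kb, still with overlapping ranges. With all pieces KHK stood at 13.2 ± 0.958 and SORD at 8.98 ± 0.303 CPM per kb in MUL1(−/−), with no overlap. Pieces shared with another gene were kept on this scale. Such pieces were 6 of 22 in KHK, 3 of 37 in UGDH and 3 of 24 in SORD. One of those of SORD is a 3′ UTR piece of 3280 bases. How far shared pieces set these levels was not tested.

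The exon pieces showed whether a change ran along the whole gene. Of the 53 pieces of DCXR with a mean of at least 20 counts, all 53 were lower in MUL1(−/−), with log2 ratios of mean CPM from -1.63 to -0.70 and a median of -1.21. The smallest drop was in the 5′ UTR, at chr17:82037690-82037697. In 52 of these 53 the groups did not overlap, as in DCXR as a whole and in 48.5% of all tested genes. The share over all exon pieces was not counted. Of the 19 such pieces of KHK, all 19 were higher, from 0.10 to 0.66 with a median of 0.55. All 9 pieces of CRYL1 were lower, from -0.45 to -0.18, with overlapping groups in each. XYLB had 20 pieces lower and 1 higher. AKR1B1 had 27 lower and 7 higher, UGDH 21 higher and 3 lower, SORD 15 higher and 5 lower, and AKR1A1 19 higher and 12 lower. Pieces of a gene share reads and are not replicates.

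**Figure D2:**
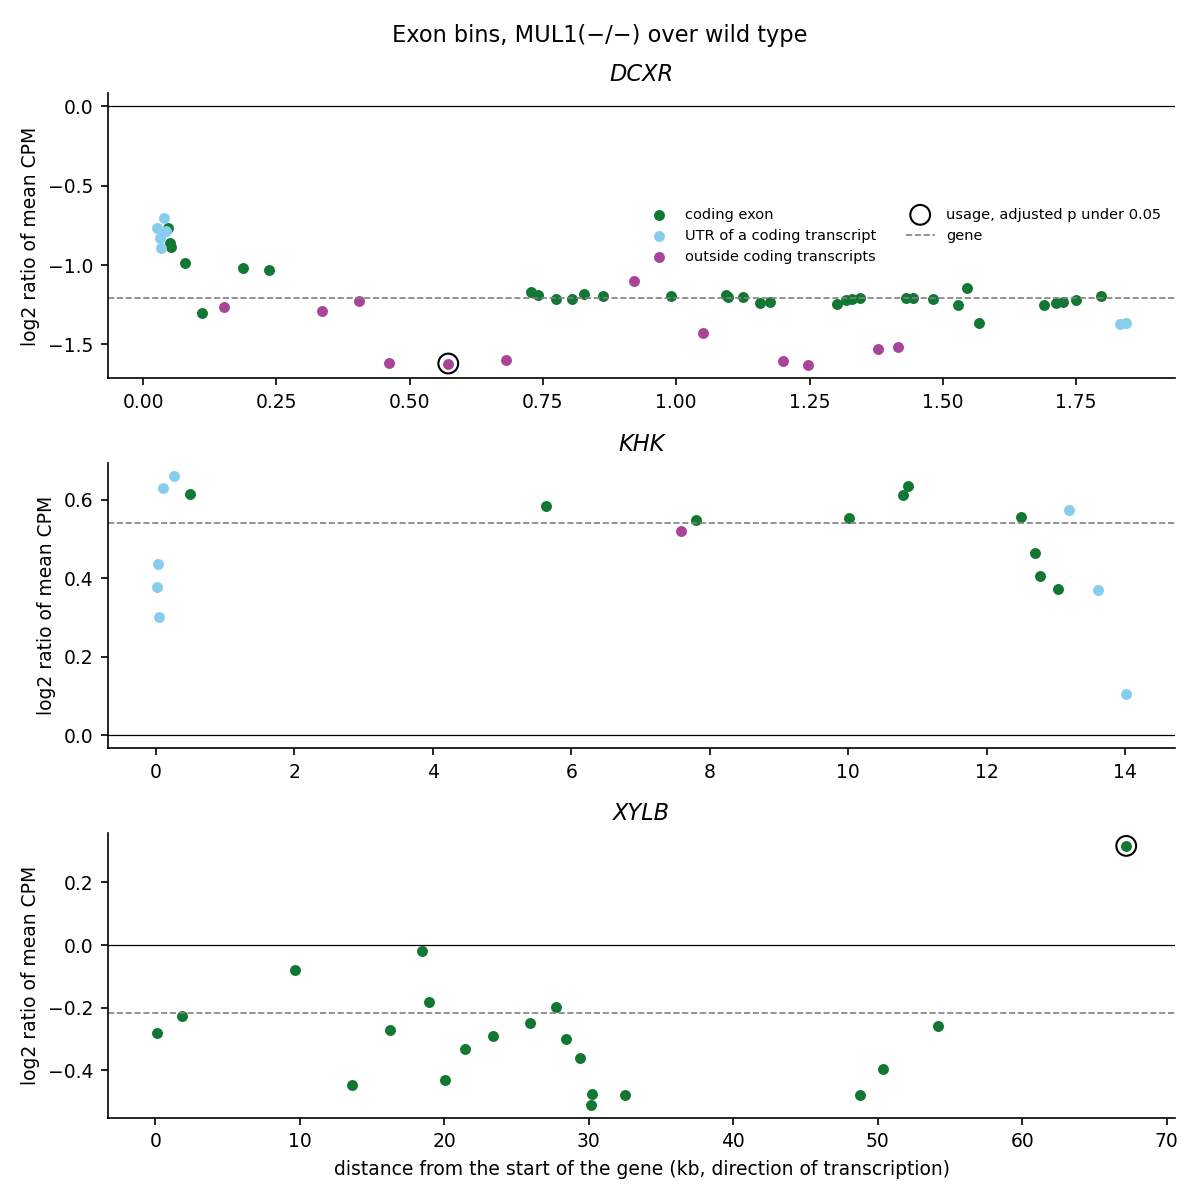
Log2 ratio of mean CPM, MUL1(−/−) over wild type, for each exon piece with at least 20 counts on average in DCXR, KHK and XYLB, against distance from the gene start (kb); colours give the kind of piece, circles mark pieces whose usage passed the test, and dashed lines give the log2 fold change of the gene. All 53 DCXR pieces lie under 0 and all 19 KHK pieces over 0, while the last XYLB piece lies at 0.32 and its other 20 pieces lie under 0.

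A piece whose change differs from that of the rest of its gene was tested with edgeR's exon usage test, which called 11.3% of 16222 genes by its Simes summary and 1.47% of tested pieces. The F test of the same fit, which asks whether the pieces of a gene differ as a whole, called 14.3% of genes. XYLB was called by the Simes summary (adjusted p = 0.00314) and not by the F test (adjusted p = 0.0702), DCXR by the F test (adjusted p = 9.94e-04) and not by the Simes summary (adjusted p = 0.117), and the other 6 genes by neither (edgeR). Its last exon, chr3:38412936-38414976, which holds a stop codon and 3′ UTR, had 217, 253 and 239 counts in wild type and 272, 302 and 267 counts in MUL1(−/−). All other pieces of XYLB together had 1599, 1775 and 1602 counts in wild type and 1373, 1277 and 1174 counts in MUL1(−/−). The last exon was thus higher and the rest lower, with no overlap in either, and its usage rose by 0.53 on the log2 scale (adjusted p = 0.00146, edgeR). Without wild-type library 1, wild-type library 2 or MUL1(−/−) library 2 the Simes adjusted p of XYLB was 0.0808, 0.0634 and 0.0695 (edgeR), above the threshold, while its last exon was called in each of these cases.

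In DCXR 1 piece was called. It is chr17:82037089-82037230, which belongs to 4 transcripts annotated as not coding, among them retained introns. It had 1742, 1687 and 1295 counts in wild type and 496, 394 and 571 counts in MUL1(−/−). Its usage fell by 0.41 on the log2 scale (adjusted p = 0.0264, edgeR). The adjoining pieces on either side had usage differences of -0.39 and -0.41 (adjusted p = 0.0591 and 0.0639, edgeR). The call was lost without wild-type library 1 or 2 and without MUL1(−/−) library 1 or 2, with adjusted p of 0.0562, 0.187, 0.270 and 0.549 (edgeR). It was also lost with pieces of at least 50 bases alone (adjusted p = 0.169, edgeR), 5 of 9 alternatives in all. The F call of DCXR was lost without wild-type library 2, MUL1(−/−) library 1 or MUL1(−/−) library 2 (adjusted p = 0.10, 0.257 and 0.277, edgeR). All 12 DCXR pieces outside coding transcripts together held 7.33%, 7.08% and 7.29% of its counts in wild type and 5.54%, 5.22% and 6.61% in MUL1(−/−). The share was lower in each MUL1(−/−) library than in each wild-type library (two-sided exact permutation p = 0.1, the smallest that 3 against 3 allows), a comparison chosen after the pieces were seen. Of 2639 genes with at least 200 counts in each part, 278 had a larger drop of these pieces relative to their coding transcripts than DCXR.

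KHK is known for a pair of mutually exclusive exons of equal length, used in the isoforms KHK-A and KHK-C. They are shown because their counts tell in which of the 2 exons the change in KHK was seen. Each exon lies in 2 of the 3 annotated coding transcripts of KHK, so they do not separate the transcripts fully. The upstream exon (chr2:27094477-27094611, transcript KHK-202) and the downstream exon (chr2:27094800-27094934, transcript KHK-201) both have 135 bases, lie 188 bases apart and are identical at 76 positions. Capitals mark the 59 positions at which they differ (GENCODE 29, GRCh38, plus strand).
KHK upstream exon: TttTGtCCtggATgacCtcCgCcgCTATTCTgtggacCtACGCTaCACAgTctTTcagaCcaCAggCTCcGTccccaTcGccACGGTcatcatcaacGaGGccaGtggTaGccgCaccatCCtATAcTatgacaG
KHK downstream exon: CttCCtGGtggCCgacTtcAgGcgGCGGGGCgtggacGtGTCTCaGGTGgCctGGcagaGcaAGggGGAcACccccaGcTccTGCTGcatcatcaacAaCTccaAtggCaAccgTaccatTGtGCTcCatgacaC

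The upstream exon, that of KHK-A, had 215, 203 and 179 counts in wild type and 298, 306 and 229 counts in MUL1(−/−). The downstream exon, that of KHK-C, had 9, 5 and 4 counts in wild type and 10, 5 and 4 counts in MUL1(−/−). Counts this low cannot tell whether the downstream exon changed. The downstream share of the pair was 4.02%, 2.40% and 2.19% in wild type and 3.25%, 1.61% and 1.72% in MUL1(−/−), and the groups overlapped. Exact 95% binomial intervals, which cover counting error only, ran from 0.470% to 7.49% over the 6 libraries. The mean share differed by -0.68 percentage points (two-sided exact permutation p = 0.5, where 0.1 is the smallest possible). The upstream exon went from 1.52 ± 0.153 to 2.22 ± 0.322 CPM (SD, n = 3 each), with no overlap (two-sided exact permutation p = 0.1).

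**Figure D3:**
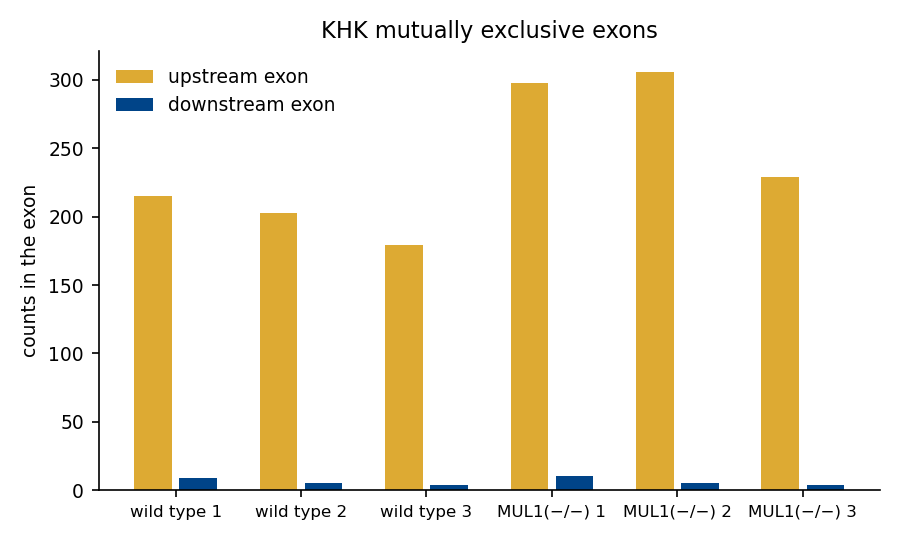
Counts in the 2 mutually exclusive exons of KHK in each library. The upstream exon has 179 to 306 counts and the downstream exon 4 to 10 counts, in both groups.

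The window upstream of DCXR is shown because a second transcript starts in it and was also lower. DCXR-DT, a divergent lncRNA, starts 173 bases from the GENCODE start of DCXR, on the plus strand. It had 0.606, 0.460 and 0.413 CPM in wild type and 0.316, 0.208 and 0.194 CPM in MUL1(−/−), a log2 fold change of -1.04 (edgeR adjusted p = 0.00667, SE 0.27). It was named after its values were seen. The sequence below, from RefSeq (GRCh38.p14), is chr17:82037733-82037947 read on the minus strand, and capitals mark the 43 bases that lie within DCXR-DT.
DCXR upstream window: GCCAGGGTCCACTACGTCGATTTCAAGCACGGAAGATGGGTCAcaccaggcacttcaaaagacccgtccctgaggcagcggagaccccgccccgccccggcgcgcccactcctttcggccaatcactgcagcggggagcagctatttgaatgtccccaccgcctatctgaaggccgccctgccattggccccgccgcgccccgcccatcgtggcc

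RefSeq promoter windows of 300 bases were found for 6 of the 8 genes, not for SORD and KHK. The letters ACGTG, a form of the core of hypoxia response elements, were searched on both strands. No other form of that core was searched. ACGTG stood 3 times in the AKR1A1 window and 1 time in that of CRYL1. These letters stood in 21.4% of all 35116 windows. The letters TGACNNNGC, the core of antioxidant response elements, stood 1 time in the XYLB window and in 13.3% of all windows. The windows of DCXR, AKR1B1 and UGDH held neither of these 2 strings of letters.

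The chromosomal surroundings of DCXR and KHK differed. Of the 20 tested genes nearest to DCXR, 10 on each side, 11 fell and 2 rose, beside 18.7% and 18.8% of all tested genes. The 11 include DCXR-DT, an unnamed gene that starts within DCXR and had 6 to 24 counts per library, and an unnamed gene that overlaps PYCR1. The median log2 fold change of these 20 was -0.39. With 5 and with 20 genes on each side in place of 10, this median moved in 1 case and not in the other. DCXR lay -0.81 from that median. RAC3, a small GTPase gene and the nearest on one side, fell by 2.20 on the log2 scale (edgeR adjusted p = 3.69e-11, SE 0.08), from 402, 366 and 338 CPM to 78.9, 74.9 and 86.7 CPM. PYCR1, a proline synthesis gene 8 tested genes away, had 116, 111 and 88.7 CPM in wild type and 0.648, 0.503 and 0.428 CPM in MUL1(−/−), a log2 fold change of -7.64 (edgeR adjusted p = 4.11e-14, SE 0.15). FASN, fatty acid synthase, on the other side, fell by 0.61 (edgeR adjusted p = 4.42e-05, SE 0.08), whereas CCDC57 rose by 0.66 (adjusted p = 1.48e-05, edgeR). Other close neighbours did not pass the threshold: LRRC45, RFNG, GPS1 and DUS1L had log2 fold changes of -0.10, -0.08, -0.03 and 0.07. The neighbours named here, and CGREF1 beside KHK, were named after their values were seen. Of the 20 genes nearest to KHK, 3 rose and 3 fell, close to those shares of all tested genes, with a median of 0.06.

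**Figure D4:**
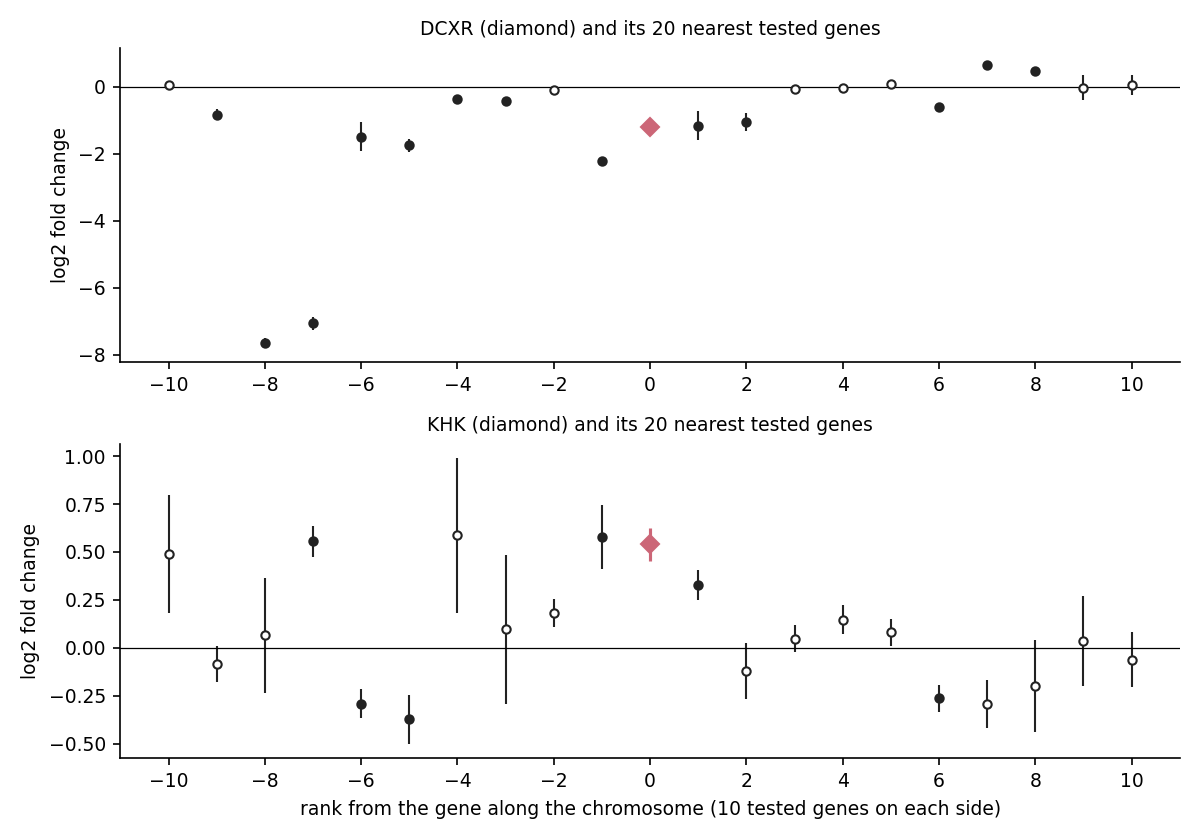
Log2 fold change ± SE of DCXR and KHK (diamonds) and of the 10 tested genes on each side, in chromosome order; filled points passed an adjusted p under 0.05. Of the DCXR neighbours 11 fell and 2 rose, with PYCR1 and a gene that overlaps it lowest, and of the KHK neighbours 3 rose and 3 fell. Across all tested genes 18.7% fell and 18.8% rose.

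Among genes that averaged 10 CPM or more, the 3 whose centred log2 CPM was closest to that of DCXR over the 6 libraries were TMUB1, PIDD1 and ACAP3, with root mean square differences of 0.06, 0.06 and 0.07 on the log2 scale, out of 10220 candidates. They lie on chromosomes 7, 11 and 1. Their log2 fold changes were -1.26, -1.13 and -1.28, values near that of DCXR by the way they were picked, since the distance includes the group difference.

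The genes of adjoining steps were taken from 4 lists, of which 54 of 61 genes were tested. Of these 54, 10 rose and 14 fell, 44.4% together, beside 37.5% of all tested genes (18.8% higher and 18.7% lower). Without wild-type library 1, 5 rose and 7 fell. Without wild-type library 2, MUL1(−/−) library 1 and MUL1(−/−) library 2 in turn, 9, 8 and 7 fell. The first list holds 18 genes that feed or drain the 2 pathways. Of its 15 tested genes 4 rose and 4 fell (53.3% together) and 7 did not pass, with a median log2 fold change of 0.02. FGGY, a carbohydrate kinase, fell from 4.08 ± 0.527 to 2.42 ± 0.355 CPM (log2 fold change -0.75, adjusted p = 6.67e-04, edgeR). GUSB, the lysosomal glucuronidase that frees glucuronate, fell by 0.39 (adjusted p = 2.82e-04, edgeR), and GLYCTK, glycerate kinase, fell by 0.30 (adjusted p = 0.0348, edgeR). SLC35D1, which carries UDP-glucuronate into the endoplasmic reticulum, rose by 0.40 (adjusted p = 0.0161, edgeR). RGN, a gluconolactonase, rose by 1.61 (adjusted p = 0.00512, edgeR), but its CPM was 0.226 or less in every library.

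The pentose phosphate pathway receives D-xylulose 5-phosphate from XYLB. Of its 13 tested genes none rose, 5 fell (38.5%) and 8 did not pass, with a median log2 fold change of -0.21. The number that fell moved in 8 of 17 alternative analyses. Across all tested genes 37.5% passed the threshold, 18.8% as higher and 18.7% as lower. PGD, 6-phosphogluconate dehydrogenase, had 320, 292 and 286 CPM in wild type and 160, 159 and 160 CPM in MUL1(−/−). The groups were far apart, and its log2 fold change was -0.90 (edgeR adjusted p = 9.67e-08, SE 0.07). PRPS2, a phosphoribosyl pyrophosphate synthetase, fell by 0.39 (adjusted p = 9.47e-04, edgeR). RPE, the epimerase, fell by 0.22 (adjusted p = 0.0312, edgeR), a call lost in 6 of 17 alternative analyses.

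Of the 24 genes that use UDP-glucuronate, 20 were tested, and 4 rose, 3 fell and 13 did not pass, with a median of 0.02. The 35% that passed are near the 37.5% of all tested genes. CHSY1, a chondroitin synthase, and EXT2, a heparan sulphate polymerase subunit, rose by 0.38 and 0.31 (adjusted p = 0.00132 and 0.00185, edgeR). B3GAT1 and B4GAT1, both glucuronyltransferases, fell by 0.39 and 0.29 (adjusted p = 0.0223 and 0.00516, edgeR). Of the 6 genes of osmolyte handling 2 rose and 2 fell, 66.7% together in a list of only 6. PNPLA6, a phospholipase that yields glycerophosphocholine, had 26.8, 23.8 and 25.3 CPM in wild type and 55.0, 49.1 and 48.0 CPM in MUL1(−/−), a log2 fold change of 1.01 (edgeR adjusted p = 2.59e-07, SE 0.08). SLC5A3, the myo-inositol transporter, fell by 0.53 (adjusted p = 5.45e-05, edgeR) and SLC38A2, an amino acid transporter, by 0.26 (adjusted p = 0.0186, edgeR). NFAT5, the transcription factor of the osmotic response that is known to act on AKR1B1, rose by 0.24 (adjusted p = 0.0169, edgeR).

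**Figure D5:**
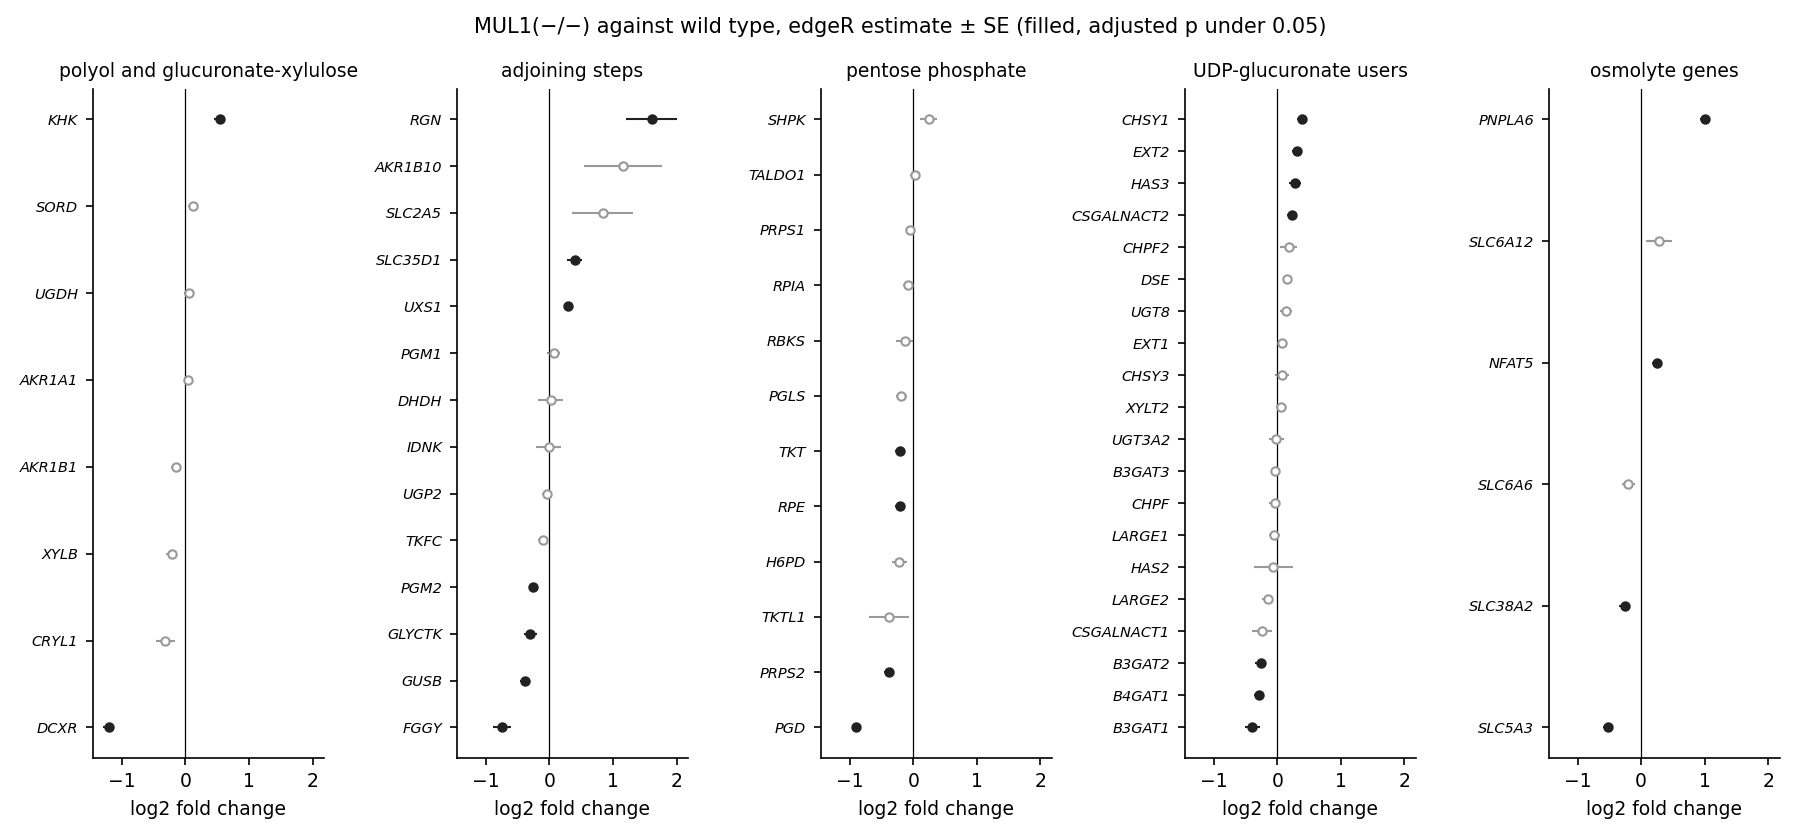
Log2 fold change ± SE (edgeR) of the 8 genes and of tested genes in 4 lists of adjoining steps, without the genes not reported here; filled points passed an adjusted p under 0.05. DCXR at -1.21 is lowest among all plotted genes and PGD at -0.90 is the lowest of the pentose phosphate genes, while PNPLA6 at 1.01 leads the osmolyte genes.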

How the data were processed

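HEK293 cells were profiled by RNA-seq in 6 libraries, 3 wild type and 3 labelled MUL1(−/−). The authors deposited raw counts per exon piece for each library. The submitters' processing notes name Trimmomatic 0.36, STAR 2.5.2b and GRCh38; the counting tool is not given in the sources used here. A total of 597973 pieces were summed per gene with GENCODE 29 names. Pieces whose identifier joined several genes went to the single one of those genes whose exons they touch. In all, 4.37% of counts, in pieces touching several or none of them, were left out. Each library was compared over genes with the others of its group, and none were duplicates.

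Genes were tested with edgeR 4.0.16 (quasi-likelihood, TMM factors, filterByExpr, Benjamini-Hochberg over 25125 genes), and exon pieces with diffSpliceDGE. Alternatives were DESeq2 1.42.0, limma-voom 3.58.1, other scalings, filters and sets of exon pieces, a replicate block and leaving out each library. Of the 17 gene-level alternatives 2 were added after the data were seen: pieces of coding transcripts and pieces of at least 50 bases. For levels per kb, pieces of at least 20 counts were also added afterwards. "Rose" and "fell" mean an adjusted p under 0.05. The gene and exon piece tests were first tested on simulated data. There each piece was drawn independently, while real pieces of a gene share reads, so the simulation does not vouch for the exon usage calls. Permutation tests used scipy 1.17.1.

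The 8 genes, the lists and the tests were chosen with earlier results of these data known. Named beside the 8 were MUL1, the markers, every list gene past both thresholds, up to 4 others per list with the largest change among those with an adjusted p under 0.05 and a mean of at least 1 CPM, and the 3 genes most like any of the 8 past both thresholds. Some list genes that this rule selects are counted but not reported here by name. Proteins were not analysed here.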

Additional observations from a re-analysis of the deposited data

How the results depend on the processing

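DCXR and KHK kept their direction and an adjusted p under 0.05 in 17 of 17 alternative analyses, with log2 fold changes of -1.31 to -1.12 and 0.48 to 0.63. Against a threshold of 1 on the log2 scale (edgeR glmTreat) the values -1.21 and 0.54 did not pass. Less the median of their neighbours, the log2 fold changes of DCXR, AKR1A1, AKR1B1, SORD and UGDH became -0.81, 0.16, -0.00279, 0.034 and 0.31. SORD passed the threshold with library totals (0.19, adjusted p = 0.0332, edgeR), AKR1B1 with pieces of coding transcripts (-0.15, adjusted p = 0.0496, edgeR), and XYLB with those pieces (-0.22, adjusted p = 0.0477, edgeR) and with DESeq2 (-0.21, adjusted p = 0.0492). With the most counted piece alone XYLB turned to 0.33 and passed as higher (adjusted p = 0.0375, edgeR), that piece being its last exon. In the same setting UGDH turned to -0.18 (adjusted p = 0.304, edgeR), for which the cause was not tested. With 1 library left out the log2 fold changes ranged from -0.19 to -0.12 for AKR1B1 and from -0.52 to -0.20 for CRYL1. The number of the 8 genes that rose became 2 with library totals and with the most counted piece. The number that fell became 2 with DESeq2 and 3 with pieces of coding transcripts, and was 1 to 2 with 1 library left out. Of the list genes, 14 fell in the main analysis, 7 with library totals, 9 with the most counted piece and 7 to 16 with 1 library left out, and the number that rose was 5 to 10 with 1 library left out. The number of the 8 genes with a change in exon usage called by the Simes summary was 1, and 0 to 2 with 1 library left out and 0 with at least 1 CPM in 3 libraries per piece, where XYLB was not tested. Same-numbered libraries did not all deviate together (correlations -0.08, 0.16 and 0.10), so the numbers were not taken as pairs. With the replicate block the log2 fold change of DCXR was -1.20 and that of KHK 0.54, and no call on the level of the 8 genes changed. In exon usage 2 genes were called by the Simes summary with the block, since DCXR went from an adjusted p of 0.117 to 0.0265 (edgeR). Among the named list genes, calls were lost in 8 alternatives for GLYCTK, 7 for B3GAT1, 6 for RPE, 5 for SLC38A2, 3 for SLC35D1 and 2 for NFAT5, and none of the genes named in the text from these lists changed direction.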
